A study of Mus musculus with 2 samples.

Results

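Endothelial and meningeal fibroblast nuclei were described among nuclei isolated from mouse embryonic neocortex, frozen after dissection. Single-nucleus RNA was measured with the 10x Genomics Chromium 3' version 3 kit and sequenced on an Illumina NovaSeq 6000. Each genotype label, MEN1-F/F and MEN1-NCKO, had 1 library. The labels do not expand either name, and they describe the animals as timed male mice. The sources used here do not give embryonic age, the number of embryos behind each library, the Cre driver or the deleted stretch of Men1. A nucleus with at least 500 detected genes was called endothelial when it held a UMI (a counted RNA molecule) of at least 3 of 6 gate genes, which were Cldn5, Flt1, Kdr, Pecam1, Mecom and Mmrn2. It was called meningeal fibroblast when it held a UMI of at least 3 of Col1a1, Col1a2, Col3a1, Dcn, Lum and Foxc1. The members were thus chosen by the measured UMIs of these 12 genes. Of 17198 nuclei with at least 500 genes, 150 passed a gate. The endothelial gate alone took 73 nuclei, the fibroblast gate alone took 75, and 2 nuclei passed both and were kept out of either type. Because the gate genes chose these nuclei, their own levels are no result. A spread between replicates cannot be had from 1 library of each genotype, so no test was run, and the types are described over both libraries together unless a library is named.

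Endothelial cells line the vessels that grow into the cortex from the covering meninges, and in the brain they build a barrier from tight junctions, selective transporters and suppressed transcytosis, under the influence of Wnt ligands from neural cells. Meningeal fibroblasts form the pia, arachnoid and dura. They lay down the pial basement membrane to which radial glia attach, and they release retinoic acid, bone morphogenetic proteins and the chemokine Cxcl12, which act on the cortex beneath.

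The 2 libraries held 6477 (F/F) and 10750 (NCKO) barcodes with 30116311 and 50115162 UMIs. Of these barcodes, 10 and 19 had under 500 genes. The libraries shared 15 barcode sequences, and 0 of the described nuclei were among them. Doublets, which are barcodes holding more than 1 nucleus, were called with Scrublet (336 and 924 barcodes) and were kept, with values without them given where they matter. The endothelial nuclei held 480248 UMIs with a median of 3252 per nucleus (range 1005 to 82383), and the fibroblast nuclei held 344688 with a median of 3943 (669 to 14354). The other 17048 nuclei had a median of 3796.

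Markers that the gates did not use went with the names. Of 20 other endothelial genes, the endothelial gate nuclei had a median of 11 with a UMI (range 0 to 19), and 71 of 73 had at least 3, against 0.569% of the remaining nuclei. Of 26 other fibroblast genes, mostly of the extracellular matrix, the fibroblast gate nuclei had a median of 7 (range 1 to 20), and 69 of 75 had at least 3, against 15.8% of the remaining nuclei. The fibroblast markers are thus less selective than the endothelial markers in this tissue. Each type had a median of 1 marker of the other type. Near the endothelial threshold, 11 nuclei with 3 gate genes had a median of 7 other endothelial markers, and 51 nuclei with 2 gate genes had a median of 0. Near the fibroblast threshold the step was smaller, with a median of 5 other markers in the 29 nuclei with 3 gate genes and 3.5 in the 28 nuclei with 2.

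**Figure D1:**
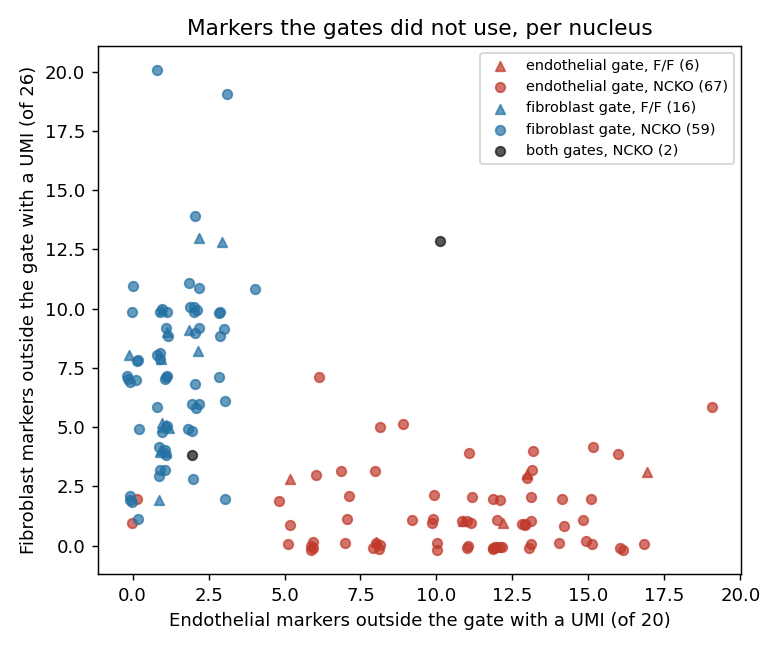
Each point is a nucleus that passed a gate, placed by how many of 20 endothelial markers (x axis) and how many of 26 fibroblast markers (y axis) outside the gates had a UMI, with a small random offset and with symbols for the library and for the 2 nuclei of both gates. The endothelial nuclei, with a median of 11 endothelial markers, lie apart from the fibroblast nuclei, with a median of 7 fibroblast markers.

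Many of the nuclei also held neuronal RNA. At least 5 of 12 neuronal genes were detected in 21 endothelial nuclei, which held 67.0% of the endothelial UMIs, and in 23 fibroblast nuclei, which held 43.6% of the fibroblast UMIs. In the endothelial set the 3 deepest nuclei held 37.4% of all its UMIs. Scrublet called 13 endothelial and 14 fibroblast nuclei as doublets, of which 11 and 12 were among those with neuronal genes. The summed level of the 6 endothelial gate genes was 4310.3 CPM (counts per 1000000 UMIs of the nuclei summed) over all endothelial members and 10160.8 CPM over those with under 5 neuronal genes. The level in the nuclei with under 5 neuronal genes, called neuron-poor below (52 of each type), is given for some results beside the level over all members. Xist, the RNA that female cells make from the inactive X chromosome, was 3151 CPM in neuron-poor endothelial and 3118 CPM in neuron-poor fibroblast nuclei and 2614 CPM in all other nuclei. This goes against reading the labelled male mice as male embryos alone.

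**Figure D2:**
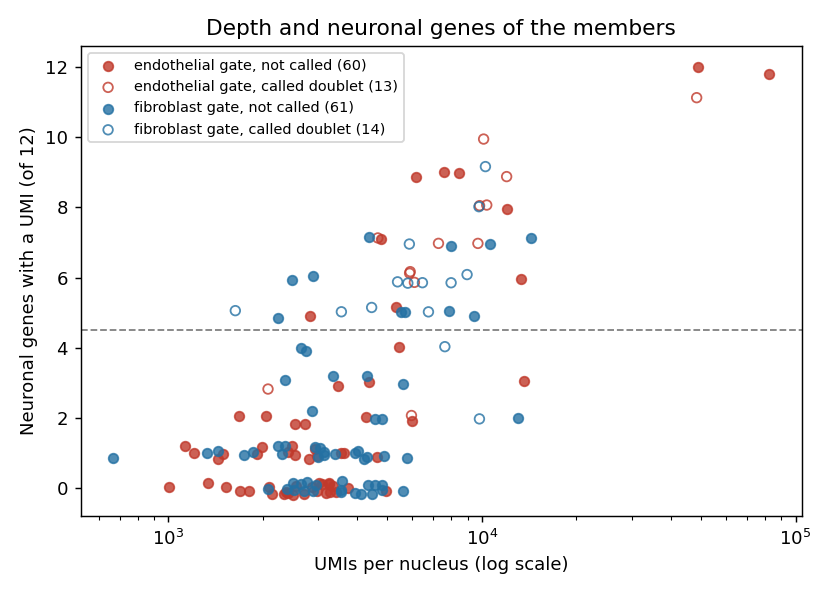
Each point is a gated nucleus, with its UMIs on a log x axis and the number of 12 neuronal genes with a UMI on the y axis (with a small random offset), and open symbols mark called doublets. Above the dashed line lie the 21 endothelial and 23 fibroblast nuclei with at least 5 neuronal genes, which include the deepest endothelial nuclei.

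Endothelial nuclei formed a larger share of the NCKO-labelled library than of the F/F-labelled library. The gate took 6 of 6467 nuclei in the F/F-labelled library, 0.0928% (exact binomial 95% interval 0.0341 to 0.202), and 67 of 10731 in the NCKO-labelled library, 0.624% (0.484 to 0.792). The ratio of the shares was 6.73 (2.93 to 19.0). This interval and all others given here cover counting error only, not the spread between animals. Intervals of levels, gene ratios and list ratios also leave out the spread between nuclei. Among neuron-poor nuclei 3 stood against 49, a ratio of 9.84 (3.18 to 49.4). With nuclei counted instead by at least 5 of the 20 endothelial markers outside the gate, 8 stood against 68, a ratio of 5.12 (2.46 to 12.3). Of those 76 nuclei 72 had passed the gate, so this count is mostly of the same nuclei and is no separate support. At 3 of the 20 markers the ratio was 2.24 (38 nuclei against 141), and of those 179 nuclei 72 had passed the gate. The direction was the same in each of these overlapping counts, and the size was smaller at the loosest marker cut.

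The gate gene Mmrn2 was itself more widespread in the NCKO-labelled library outside the endothelial gate, at 5.16% of its nuclei against 0.727% in the F/F-labelled library, and Cldn5, a tight junction claudin, in 0.657% against 0.124%. Kdr, at 0.150% against 0.0774%, and Mecom, at 0.844% against 0.495%, went the same way. Pecam1 and Flt1 did not, at 1.28% against 1.76% for Pecam1 and 0.825% against 0.991% for Flt1. Leaving Mmrn2 alone out of the gate gave 6 nuclei against 64, a ratio of 6.43. After thinning every nucleus to 1000 UMIs before gating, 4 stood against 46, a ratio of 6.94 (2.53 to 26.5).

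Meningeal fibroblast nuclei were also a larger share of the NCKO-labelled library, by less. The gate took 16 nuclei or 0.247% (0.141 to 0.401) and 59 nuclei or 0.550% (0.419 to 0.709), a ratio of 2.22 (1.26 to 4.14). The F/F-labelled fibroblast nuclei were shallower, with a median of 2724.5 UMIs against 4315. When all nuclei were thinned to 1000 UMIs before the gate, 9 stood against 18 and the ratio was 1.21 (0.515 to 3.05). Among neuron-poor nuclei it was 1.81 (0.945 to 3.69), without called doublets 1.76 (0.975 to 3.33), and by at least 8 of the 26 markers outside the gate 1.51 (0.790 to 3.03). Each of these 4 intervals includes 1. Other counts had intervals above 1, at 1.78 (1.12 to 2.93) with a gate of 2 genes and 2.94 (1.35 to 7.28) with 4. By at least 5 of the 26 markers the ratio was 1.37 (1.07 to 1.77), and 60 of those 298 nuclei had passed the gate. At 3 markers it was 1.07 (0.985 to 1.15). Dcn and Lum, small matrix proteoglycans of the gate, were seen in 0.310% and 0.0775% of F/F-labelled nuclei outside the gate against 1.097% and 0.394% in the NCKO-labelled library. Leaving both out of the gate gave 12 nuclei against 42, a ratio of 2.11 (1.09 to 4.401).

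Shares of other classes were counted in the same way. Mural cells, the contractile cells wrapped around vessels, were 21 and 40 nuclei, a ratio of shares of 1.15 (0.661 to 2.05). Microglia or macrophages were 28 and 54 nuclei, a ratio of 1.16 (0.723 to 1.91). Nuclei with erythroid genes were 30 and 83, a ratio of 1.67 (1.09 to 2.62). The endothelial ratio lies above all 3 of these, and its interval starts above the upper bound of the mural, microglial and erythroid intervals. A difference between these libraries and a difference between genotypes cannot be told apart.

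**Figure D3:**
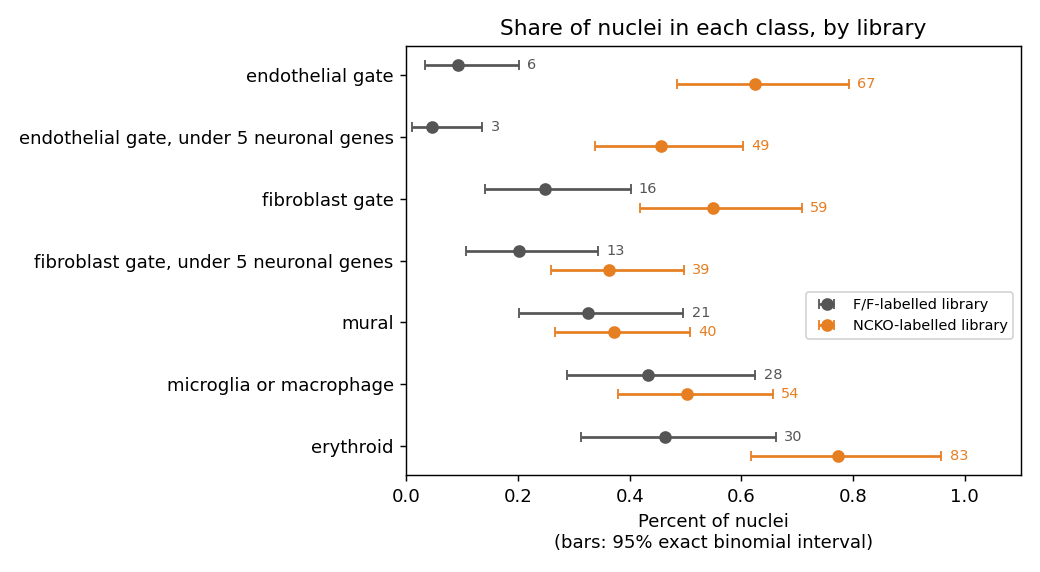
Points give the percent of nuclei with at least 500 genes that fell in each class in the F/F-labelled and NCKO-labelled library, with exact binomial 95% intervals and the number of nuclei beside each. The endothelial shares (6 and 67 nuclei) are the farthest apart, while the mural (21 and 40) and microglial (28 and 54) shares overlap.

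Levels are in CPM of the nuclei summed. A gene was called measured when at least 10 UMIs were seen, or were to be seen at the level of the other nuclei, and ratios for calls are log2 of (CPM + 10) over (CPM + 10), which draws low genes towards 0. A gene was called 4-fold higher or lower on this scale without any test. Against all other nuclei 364 of 8565 measured genes were 4-fold higher in the endothelial nuclei, or 4.25%, and 5 were 4-fold lower, or 0.0584%. The median log2 ratio over all measured genes was 0.15.

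On that scale the highest gene outside the gate was Adgrl4, an adhesion G protein-coupled receptor of endothelial cells (chromosome 3 from 151437887 to 151545086, plus strand, GRCm38, ENSMUSG00000039167). Adgrl4 stood at 592 CPM (46 UMIs) in the F/F-labelled endothelial nuclei and 631 CPM (254 UMIs) in the NCKO-labelled ones. Over both it was 625 CPM (556 to 700), seen in 56 of 73 nuclei, against 0.466 CPM in all other nuclei, a ratio of 1340.0 (950.2 to 1940.2). Fli1, an ETS transcription factor, was 631 and 768 CPM in the 2 libraries and 745 CPM in all, 243 times the other nuclei, and was also at 476 CPM in microglia. Zfp366, a zinc finger regulator, was 287 CPM against 0.151 CPM. These genes were high in the endothelial nuclei of both libraries.

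The further leading genes fell in a few roles. Rassf9, an adaptor of the Ras association family, was 516 CPM (999.6 times the other nuclei), and Cyyr1, a small membrane protein, was 350 CPM (868 times the other nuclei). Egfl7, a secreted angiogenic factor, was 394 CPM and Eng, a TGF-beta family co-receptor, was 287 CPM. Ptprb, the phosphatase that restrains Tie2, was 406 CPM and was seen in 60 of 73 nuclei. Igfbp7, a secreted binding protein, was 604 CPM but 721 CPM in mural nuclei, so it did not separate these 2 vascular types. Ets1 was 425 CPM, with 257 CPM in mural nuclei. Slc7a1 and Slc7a5, carriers of cationic and large neutral amino acids, were 1312 and 756 CPM and the most abundant of the 15 leaders besides the haemoglobin gene Hbb-bs. In neuron-poor nuclei each of the 15 leaders was higher, for example 1427 CPM for Adgrl4, 1711 CPM for Fli1 and 3006 CPM for Slc7a1.

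Hbb-bs, at 1091 CPM, stood apart from the other leaders. It was seen in 26 of 73 endothelial nuclei, and summed haemoglobin genes in neuron-poor nuclei came to 764 UMIs, of which 3 nuclei held 93.6%. Without those 3 the sum was 361 CPM, against 91.0 CPM in all other nuclei. The erythroid membrane gene Slc4a1 had a UMI in 0 of the 52 neuron-poor endothelial nuclei. The part of red blood cell RNA in the endothelial level was not tested.

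The promoters of 3 leading endothelial genes are shown because ETS factors were among the leaders and several leading genes carry an ETS-type core. The sequences are the 250 bases before the annotated start, 5′ to 3′ on the strand of the gene, from RefSeq on GRCm38.p6, and capitals mark AGGAAG or its reverse complement CTTCCT. Adgrl4 is chr3:151437632-151437881 (plus), Egfl7 is chr2:26580833-26581082 (plus, the farther of the starts listed) and Eng is chr2:32646345-32646594 (plus).
Adgrl4: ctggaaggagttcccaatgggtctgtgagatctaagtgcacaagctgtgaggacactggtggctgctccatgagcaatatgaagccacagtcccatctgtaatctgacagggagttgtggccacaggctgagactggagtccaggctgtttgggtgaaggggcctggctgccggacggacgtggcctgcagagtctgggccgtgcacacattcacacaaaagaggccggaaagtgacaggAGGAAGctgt
Egfl7: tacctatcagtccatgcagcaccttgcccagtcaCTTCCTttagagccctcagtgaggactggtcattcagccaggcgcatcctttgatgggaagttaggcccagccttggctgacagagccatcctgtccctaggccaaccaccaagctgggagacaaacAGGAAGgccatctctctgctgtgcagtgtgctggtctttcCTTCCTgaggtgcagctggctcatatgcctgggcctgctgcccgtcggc
Eng: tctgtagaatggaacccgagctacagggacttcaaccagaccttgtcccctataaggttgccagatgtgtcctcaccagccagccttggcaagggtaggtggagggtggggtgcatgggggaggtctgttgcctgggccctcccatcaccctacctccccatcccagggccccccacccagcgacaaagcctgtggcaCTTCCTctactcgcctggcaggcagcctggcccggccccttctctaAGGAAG
The Adgrl4 window holds 1 such match, the Egfl7 window 3 and the Eng window 2. Of the 15 endothelial leaders 8 were in the promoter table with 11 windows, and 5 windows (45.5%) held a match. For the fibroblast leaders it was 2 of 14 windows (14.3%), and over all 32851 windows of this length 29.5%. A match is only these letters and does not show binding.

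**Figure D4:**
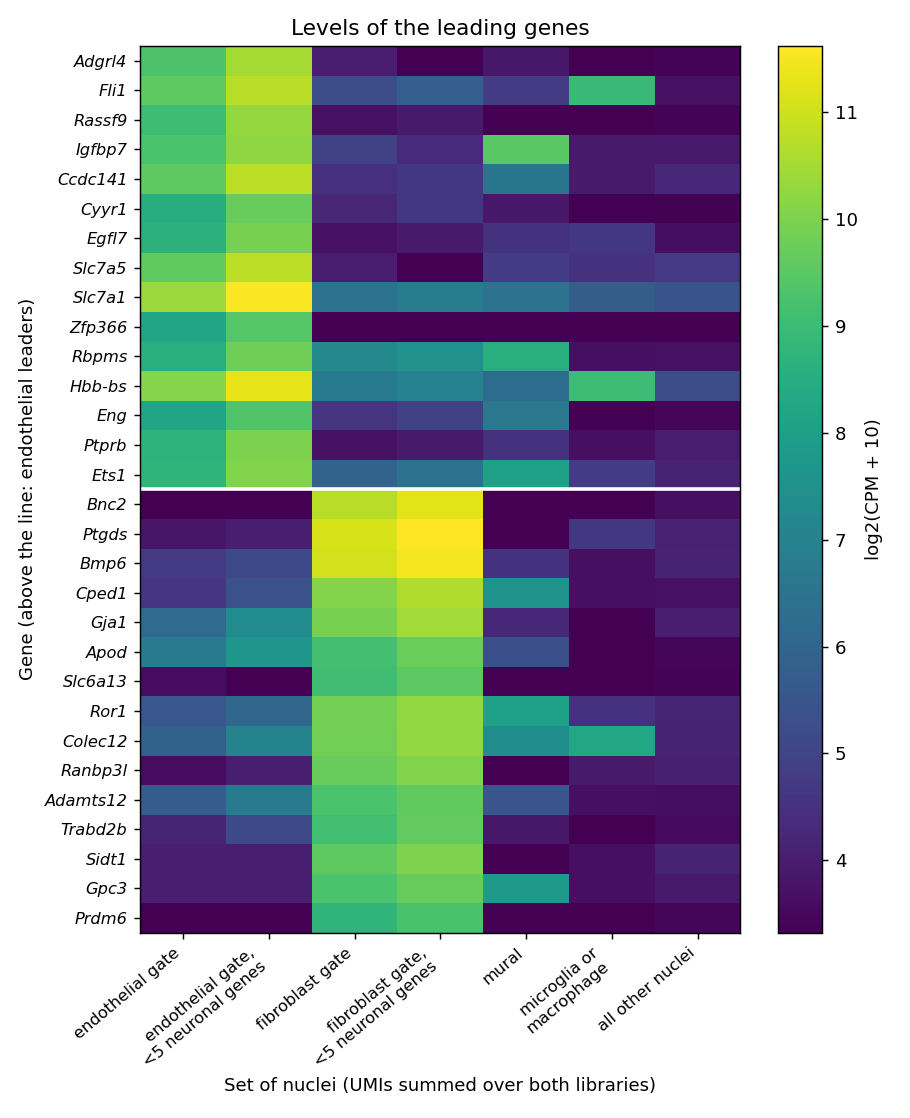
Colour gives log2(CPM + 10) of the 15 leading genes of each type (rows) in the gated nuclei, their neuron-poor subsets, mural nuclei, microglia or macrophages and all other nuclei (columns). The leaders of each type are high in the columns of that type, while Igfbp7 is also high in mural nuclei (721 CPM) and Fli1 is shared with microglia (476 CPM).

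Endothelial transcription factors were broadly high. Of 21 factors 16 were 4-fold higher, with a median log2 ratio of 2.36 against 0.15 over all measured genes. Besides Fli1 and Ets1, Erg, an ETS factor of vessel identity, was 144 CPM (112 to 182) against 0.592 CPM, and Epas1, the hypoxia-inducible factor HIF-2 alpha, was 210 CPM against 1.13 CPM. Sox17, an arterial SoxF factor, had 21 UMIs in 16 nuclei (43.7 CPM), and Sox7 17 UMIs, while Sox18 had 5. Foxq1 (60.4 CPM) and Foxf2 (22.9 CPM), forkhead factors of brain endothelium, had 29 and 11 UMIs. Klf2 and Klf4, factors induced by blood flow, had 34 and 10 UMIs, and all 34 Klf2 UMIs came from the NCKO-labelled nuclei.

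Blood-brain barrier transport genes were among the highest groups. Of 22 genes 17 were 4-fold higher, and the median log2 ratio was 3.09. Slc2a1, the glucose transporter GLUT1 of brain endothelium, was 464 CPM (36 UMIs) in the F/F-labelled and 474 CPM (191 UMIs) in the NCKO-labelled endothelial nuclei. Nuclei with at least 5 neuronal genes held 89.2% and 62.7% of the endothelial UMIs of these libraries. Endothelial levels of any gene by library therefore cannot be compared directly. Slc2a1 was 473 CPM (413 to 538) over both, seen in 60 of 73 nuclei, and 1042 CPM in neuron-poor nuclei, against 9.34 CPM elsewhere. Slco1c1, a thyroid hormone carrier, was 675 CPM and Tfrc, the transferrin receptor, 352 CPM. Lrp8, an apolipoprotein E and reelin receptor, was 872 CPM but already 166 CPM in all other nuclei.

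The lipid transporter Mfsd2a, which restrains transcytosis, was 183 CPM (147 to 226), with 3 UMIs (38.6 CPM) in the F/F-labelled and 85 UMIs (211 CPM) in the NCKO-labelled nuclei. Of the efflux pumps, Abcb1a (P-glycoprotein) was 152 CPM, Abcg2 154 CPM and Abcc4 135 CPM. Slc22a8, the organic anion transporter OAT3, was 187 CPM against 0.441 CPM. At the other end, Slco1a4, an organic anion carrier of the mature barrier, had 2 UMIs in 1 nucleus and Slc19a3, a thiamine transporter, 7 UMIs. In neuron-poor nuclei Slc2a1 was seen in 44 of 52, Mfsd2a in 30 and both in 25, and the amino acid carrier Slc7a5 in 46 with its partner chain Slc3a2 in 36 and both in 32.

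Junction and caveolar genes were mixed. Of 15 junction genes 7 were 4-fold higher (median log2 ratio 1.90), and 10 were in neuron-poor nuclei (median 2.87). Cdh5, vascular endothelial cadherin, was 158 CPM (125 to 198) against 0.227 CPM, and Ocln, encoding occludin, was 99.9 CPM (73.7 to 133) against 1.18 CPM. Tjp1, the scaffold ZO-1, was abundant at 816 CPM but 244 CPM elsewhere. Cldn12 had 0 UMIs, which allows up to 6.25 CPM at 3 counts. Of 6 genes of fenestrae and caveolae only Cav1, caveolin-1, was 4-fold higher over all members, at 179 CPM. In neuron-poor nuclei 4 of the 6 were, all but Cavin3 and Plvap (median log2 ratio 2.50), where 14.5% of all measured genes were. Of these 4 only Cav1 had enough UMIs there to be called measured. Cav2, Cavin1 and Cavin2 had 8, 8 and 9 UMIs in the neuron-poor endothelial nuclei. Plvap, the diaphragm protein of leaky vessels, had 6 UMIs in 4 nuclei, 12.5 CPM (4.58 to 27.2).

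Wnt genes of vessels were partly high. Of 18 genes 7 were 4-fold higher (median log2 ratio 1.60). Among neuron-poor nuclei 11 of the 18 were (median 2.51), with 13 of them measured, where 14.5% of all measured genes were 4-fold higher. Lef1, a transcription factor of the pathway, was 219 CPM (17 UMIs) and 385 CPM (155 UMIs) in the 2 libraries and 358 CPM over both, against 5.49 CPM. Apcdd1, a Wnt-induced inhibitor, was 414 CPM (359 to 476) against 19.97 CPM, and Fzd6, a Frizzled receptor, was 158 CPM against 0.529 CPM. Notum and Nkd1, feedback inhibitors, were 47.9 and 72.9 CPM. Fzd4, the receptor for norrin, had 7 UMIs, and its co-receptor gene Tspan12 had 10, at 20.8 CPM no higher than the 20.3 CPM of the other nuclei.

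Genes of Tie, TGF-beta, BMP and related signalling, ligands and Smad genes included, were 4-fold higher at 10 of 18 (median log2 ratio 2.49). Over all members the receptor genes Bmpr2, Tgfbr1 and S1pr1 were not. In neuron-poor nuclei 11 of the 18 were (median 3.24), where 14.5% of all measured genes were. S1pr1 was then among those higher, while Bmpr2 and Tgfbr1 were not. Tek, the Tie2 receptor, was 373 CPM against 6.33 CPM, Tgfbr2 was 208 CPM against 1.97 CPM and Acvrl1 (ALK1) 83.3 CPM against 0.252 CPM. Tek had 5 UMIs in the 6 F/F-labelled nuclei and 174 in the 67 NCKO-labelled ones. Of the ligands for mural cells, Pdgfb was 106 CPM and Pdgfd 248 CPM. Among 24 VEGF, Notch and sprouting genes 11 were 4-fold higher (median 1.46). Aplnr, the apelin receptor, was 110 CPM (53 UMIs) and its ligand gene Apln 41.6 CPM (20 UMIs), and both had UMIs in 2 of the 52 neuron-poor nuclei where 17 and 8 had them alone or together. Dll4, a Notch ligand of tip cells, had 16 UMIs, Notch4 25 and Esm1, a tip cell marker, 1.

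Arterial and venous genes were sparse. Of 14 genes 3 were 4-fold higher (median log2 ratio 1.13), which were Slc38a5 (72.9 CPM), a venous and capillary glutamine carrier, Vwf (127 CPM), von Willebrand factor, and Unc5b (121 CPM), a netrin receptor that was also 155 CPM in mural nuclei. Summed over neuron-poor nuclei, 5 of the 14 were 4-fold higher (median 1.24), where 14.5% of all measured genes were. Among the 52 neuron-poor nuclei at least 2 arterial genes were seen in 14, at least 2 venous genes in 16, at least 2 sprouting genes in 18 and at least 2 mitotic genes in 1. These lists held 8, 4, 8 and 6 genes, and 1.72%, 0.252%, 3.11% and 2.90% of all other nuclei had at least 2 of them. The arterial connexin gene Gja4 was seen in 9 of the 52 neuron-poor nuclei and Slc38a5 in 15, with both in 1. Gja5 and Gkn3, markers of mature arteries, had 0 UMIs, which allows up to 6.25 CPM.

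Basement membrane genes were 4-fold higher at 8 of 18 (median log2 ratio 1.90), and at 11 of 18 in neuron-poor nuclei (median 3.12), where 14.5% of all measured genes were. Col4a1 and Col4a2, the main type IV collagen chains, were 554 and 512 CPM against 26.6 and 26.7 CPM elsewhere, and 1477 and 986 CPM in mural nuclei. Sparc, a collagen-binding matrix protein, was 446 CPM and Lama4, a vascular laminin chain, 348 CPM. Lama2, a laminin chain of pia, muscle and mural cells, had 3 UMIs and Lama5, a laminin of mature vessels, 1. At least 3 of 7 mural genes were seen in 7 of the 73 endothelial nuclei, and in neuron-poor nuclei 3 nuclei held 81.6% of 87 mural UMIs. The part of mural RNA in the collagen levels was not tested.

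Of the lists for the other type, 0 of 26 fibroblast matrix genes were 4-fold higher in endothelial nuclei (median log2 ratio -0.05), but only 7 were measured. In neuron-poor nuclei, with 3 of the 26 measured, 2 were 4-fold higher (Bgn and Pdgfrb) and 2 were 4-fold lower. Of 33 meningeal transcription factors 3 were higher over all members, among them Lef1 and Ebf1, with 9 measured. Over all measured genes 4.25% were 4-fold higher. Ebf1, a factor of mural and mesenchymal cells, was 1229 CPM and seen in 64 nuclei, below its 2331 CPM in mural nuclei.

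The genes that were 4-fold lower numbered 5 over all members and 668 of 4616 in neuron-poor nuclei (14.5% of measured genes, the same number as were 4-fold higher). Among the 5, Ntng1, netrin-G1 of axons, was 24.99 CPM against 149 CPM. Among neuron-poor nuclei the lowest was Egfem1, with 0 UMIs against 917 CPM, and Tenm2, a teneurin of neuronal synapses, was 202 CPM against 7787 CPM. Neuron-poor nuclei were chosen for few neuronal genes and the other nuclei were not, so lower neuronal genes in them follow partly from that choice. Nuclei with at least 5 neuronal genes held 83.6% of the UMIs of all other nuclei.

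The fibroblast nuclei had 475 of 7357 measured genes 4-fold higher than all other nuclei, or 6.46%, and 40 4-fold lower, or 0.544%. The median log2 ratio of all measured genes was 0.21. On the same scale the highest gene outside the gate was Bnc2, a zinc finger factor of mesenchymal cells (chromosome 4 from 84275095 to 84675275, minus strand, ENSMUSG00000028487). Bnc2 was 1949 CPM (110 UMIs) in the F/F-labelled and 1641 CPM (473 UMIs) in the NCKO-labelled fibroblasts, 1691 CPM (1557 to 1834) over both, against 2.65 CPM in all other nuclei, a ratio of 639 (545 to 752). It was seen in 50 of 75 nuclei.

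Ptgds, prostaglandin D2 synthase of arachnoid cells, was lower in the F/F-labelled library, at 1187 CPM (67 UMIs) against 2401 CPM (692 UMIs). Over both it was 2202 CPM (2048 to 2364) in 40 of 75 nuclei, against 7.11 CPM elsewhere. Bmp6, a bone morphogenetic protein, went the other way, at 3030.1 CPM (171 UMIs) and 1918 CPM (553 UMIs), and was 2100.5 CPM over both, 272 times the other nuclei. Both genes were far above the other nuclei in each library.

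Other leaders were Cped1 (1065 CPM), Gja1, the gap junction protein connexin 43 (960.3 CPM), Ror1, a Wnt5a receptor (934 CPM), Colec12, a scavenger receptor (908 CPM, with 300.0 CPM in microglia), and Ranbp3l (824 CPM). Apod, apolipoprotein D, was 554 CPM, 619 times the other nuclei, and 95.8 CPM in endothelial nuclei. Slc6a13, the GABA and taurine carrier GAT2, was 797 and 482 CPM in the 2 libraries and 534 CPM over both, 1059 times the other nuclei. Gpc3, a glypican, was 615 CPM, the zinc finger gene Prdm6 421 CPM and the metalloprotease gene Adamts12 603 CPM. In neuron-poor nuclei Trpm3, a cation channel, was the most abundant gene after Malat1, at 12431 CPM against 919 CPM in all other nuclei, followed by Auts2 at 5526 CPM and Rora, a nuclear receptor, at 4779.9 CPM against 353 CPM in all other nuclei.

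Many matrix genes were higher in the fibroblasts. Of 26 fibroblast matrix and receptor genes 17 were 4-fold higher (median log2 ratio 2.69). Col5a2, a fibrillar collagen chain, was 395 CPM (331 to 467) against 8.37 CPM, Col6a3 171 CPM against 0.706 CPM, and Postn, periostin, 119 CPM against 0.643 CPM. Pdgfra, the fibroblast PDGF receptor, was 200.2 CPM and Pdgfrb, the mural PDGF receptor, 102 CPM, below its 933 CPM in mural nuclei. Vcan, a large proteoglycan, was 223 CPM against 270 CPM elsewhere, so not every matrix gene was higher. Of 18 basement membrane genes 13 were 4-fold higher (median 3.30), among them Lama2 at 447 CPM (379 to 523), Col4a1 at 490 CPM, Lama1, the early pial laminin chain, at 223 CPM and Lamc3 at 113 CPM against 0.605 CPM. Lama5 had 0 UMIs, which allows up to 8.70 CPM.

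Of 33 meningeal transcription factors 14 were 4-fold higher (median log2 ratio 1.94). Foxd1, a forkhead factor of meningeal mesenchyme, was 159 and 198 CPM in the 2 libraries and 191 CPM over both, against 0.491 CPM. Zic1 was 337 and 225 CPM in the libraries and 244 CPM over both, with 234 CPM in mural nuclei. Tbx15 was 223 CPM and Tbx18 151 CPM, the latter with 23 UMIs in the 16 F/F-labelled nuclei (408 CPM) and 29 in the 59 NCKO-labelled ones (101 CPM). Osr1 was 102 CPM (35 UMIs), all from the NCKO-labelled nuclei, and Foxc2, a paralogue of the gate gene Foxc1, was 43.5 CPM (15 UMIs), also all from NCKO-labelled nuclei. Tcf21, Meox2 and Meox1 had 0 UMIs.

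Genes described for all 3 meningeal layers were present. Of 9 pia genes 5 were 4-fold higher (median log2 ratio 3.45), of 10 arachnoid genes 6 (median 2.71), and of 10 dura genes 4 (median 1.90). Cxcl12, the chemokine that holds Cajal-Retzius cells and guides interneurons, was 691 CPM (39 UMIs) in the F/F-labelled and 194 CPM (56 UMIs) in the NCKO-labelled fibroblasts, 276 CPM over both. Cldn11, the arachnoid tight junction claudin, was 235 CPM (187 to 292) against 0.315 CPM, and Cdh1, E-cadherin, had 18 UMIs in 5 nuclei. Fxyd5, a dura marker, was 95.7 CPM. It was also the 1 gene of the dura list that was 4-fold higher in endothelial nuclei, so it was not particular to the fibroblasts. Among 52 neuron-poor nuclei 42 had at least 2 pia genes, 36 at least 2 arachnoid genes and 34 at least 2 dura genes, and 30 had at least 2 of both pia and arachnoid, so these lists did not divide the nuclei into layers. Of all other nuclei 3.64%, 3.47% and 9.57% had at least 2 pia, arachnoid and dura genes. Foxp1, which was not 4-fold higher, held 67.4% of the dura list UMIs over all fibroblasts.

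Genes of retinoic acid were 4-fold higher at 5 of 15 (median log2 ratio 1.60). Aldh1a2, the main retinoic acid synthase of the meninges, was 301 CPM (17 UMIs) in the F/F-labelled and 246 CPM (71 UMIs) in the NCKO-labelled fibroblasts, 255 CPM (205 to 315) over both, and 0.227 CPM in all other nuclei. Stra6, the retinol uptake receptor, was 84.1 CPM. Cyp26b1, which degrades retinoic acid, had 26 UMIs in 5 nuclei, and Aldh1a1 14 UMIs. Aldh1a3 had 0 UMIs. RNA for retinol uptake, synthesis and breakdown was thus detected in these nuclei.

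Of 23 secreted meningeal signals 7 were 4-fold higher (median log2 ratio 1.67). Besides Bmp6, Bmp7 was 230.4 and 219 CPM in the 2 libraries and 220.5 CPM over both, Bmp5 136 CPM with 26 of its 47 UMIs in the F/F-labelled nuclei, and Bmp4 69.6 CPM. Sema3a, a repellent axon guidance cue, was 632 CPM but 139 CPM elsewhere. Wnt6 had 21 UMIs, all from NCKO-labelled nuclei. Ptn, the growth factor pleiotrophin, was the most abundant signal at 3229 CPM (5174 and 2848 CPM by library) and was widely expressed, with 843 CPM in other nuclei. Igf2 had 6 UMIs, and Gdf10 and Fgf2 had 0.

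Solute carriers of the meningeal barrier were 4-fold higher at 9 of 15 (median log2 ratio 2.36). After Slc6a13, Slc6a20a, an imino acid carrier, was 302 CPM, Slc7a11, the cystine-glutamate exchanger, 316 CPM, and Slc22a6 and Slc22a8, organic anion carriers, 110.2 CPM each. Slc1a3, the glutamate transporter GLAST, was 905 CPM against 168 CPM. Slc47a1, an organic cation exporter, had 27 UMIs in 7 nuclei, 16 of them in the F/F-labelled library. Of 18 vessel Wnt genes 8 were also 4-fold higher in the fibroblasts (median 1.498), among them Tcf7l2 (293 CPM), Lgr4 (284 CPM) and Axin2 (122 CPM).

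Few endothelial genes had enough UMIs in the fibroblast nuclei to be called measured. Of 20 endothelial markers outside the gate 3 were measured, and all 3 were 4-fold higher, where 6.46% of all measured genes were. The median log2 ratio over the 20 was 0.33, and the other 17 were not measured. The 20 summed to 653 CPM against 70.4 CPM in all other nuclei, and Arhgap29 held 63.1% of those fibroblast UMIs. Cdh5 was 104 CPM (73.2 to 145) in 19 of 75 nuclei, against 0.227 CPM in all other nuclei, 0 UMIs in mural nuclei and 158 CPM in the endothelial nuclei. Arhgap29 was 412 CPM and Cd34, a progenitor and vessel sialomucin, 37.7 CPM. Emcn and Esam, endothelial surface genes, had 0 UMIs, which allows up to 8.70 CPM. In neuron-poor fibroblasts Cdh5 was seen in 14 of 52 nuclei and Emcn in 0.

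The genes that were 4-fold lower in fibroblasts included Gm32647, with the largest log2 difference, at 2.90 CPM against 143 CPM. Next came Cntnap5a and Unc5d. Cntnap5a, a neurexin family gene, was 52.2 CPM against 483 CPM and Unc5d, a netrin receptor of upper-layer neurons, was 131 CPM against 939.7 CPM. In neuron-poor fibroblasts 585 of 5389 measured genes were 4-fold higher (10.9%) and 553 4-fold lower (10.3%), and Unc5d was 46.3 CPM. These nuclei too were chosen for few neuronal genes, so lower neuronal genes in them follow partly from that choice.

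Set against each other, the endothelial nuclei had 205 of 9155 measured genes 4-fold higher than the fibroblasts (2.24%) and 294 4-fold lower (3.21%). In neuron-poor nuclei these were 409 of 4689 (8.72%) and 433 (9.23%). On the endothelial side Slc7a5 was 130 times higher (35.8 to 1080), Slco1c1 77.5 times (26.3 to 378) and Slc2a1 32.6 times (13.8 to 101). Genes with 0 UMIs in the fibroblasts give lower bounds against 3 counts over the group. Zfp366 was at least 33.0-fold higher, Esam at least 23.7-fold, Mfsd2a at least 21.1-fold, Emcn at least 18.7-fold and Aplnr at least 12.7-fold. The barrier transporters thus stood among the widest differences.

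On the fibroblast side Bnc2 had 0 endothelial UMIs and was at least 271-fold higher. Ptgds was 529 times higher (146 to 4374), on 2 endothelial UMIs, and Bmp6 126 times (63.7 to 293). Adam12, a metalloprotease, was 78.9 times higher (39.7 to 184), and Slc6a13 256 times (45.4 to 10180.2), on 1 endothelial UMI. Aldh1a2 was at least 40.9-fold and Col6a3 at least 27.4-fold higher.

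The laminin chains divided between the types. Lama2 was 71.5 times higher in fibroblasts (24.02 to 351), Lamc3 18.1 times (5.76 to 91.6) and Lama1 3.83 times (2.46 to 6.13). In neuron-poor nuclei these 3 values were 88.8 (15.6 to 3540), 8.15 (2.53 to 41.7) and 1.83 (1.12 to 3.05). Lama4 was not separated at this depth, at 348 and 331 CPM (endothelial over fibroblast 1.05, 0.824 to 1.35), although in neuron-poor nuclei the ratio was 2.12 (1.59 to 2.84). Col4a1, at 554 and 490 CPM, had a ratio of 1.13 (0.928 to 1.38), and Sparc, at 446 and 505 CPM, 0.883 (0.719 to 1.08). In neuron-poor nuclei the ratios were 1.98 (1.58 to 2.50) for Col4a1 and 1.37 (1.08 to 1.74) for Sparc, so that both were then higher in endothelial nuclei.

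Some barrier genes had RNA in both types. Abcg2 was 154 and 133 CPM in endothelial and fibroblast nuclei, a ratio of 1.15, and Slc22a8 187 and 110.2 CPM, a ratio of 1.70. Slc38a2, a glutamine carrier, was 941 and 775 CPM, a ratio of 1.22. In neuron-poor nuclei these 3 ratios were 2.003 (1.32 to 3.08), 3.07 (1.98 to 4.86) and 2.06 (1.72 to 2.47). All 3 genes were then higher in endothelial nuclei. Wnt genes were split, with Lef1 4.11 times higher in endothelial nuclei (2.78 to 6.28), Apcdd1 5.10 times higher, Fzd6 at a ratio of 1.52 and Lgr4 34.1 times higher in fibroblasts (12.9 to 128). The transcription factor gene Zic1 was 23.4 times higher in fibroblasts (9.64 to 74.0). In neuron-poor nuclei the value for Zic1 was 13.9 (5.17 to 52.3), and the endothelial over fibroblast ratios were 10.97 (6.53 to 19.7) for Lef1 and 9.33 for Apcdd1.

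The contrasts were also seen at matched depth. With each nucleus thinned to 1000 UMIs, Slc2a1 was seen in 37 of 73 endothelial nuclei, 50.7%, and in 0 of 74 fibroblast nuclei, which allows up to 4.05%. Unthinned, the shares were 82.2% and 6.67%. Slc6a13 was seen in 32 of 74 thinned fibroblast nuclei, 43.2%, and in 0 of 73 endothelial nuclei, which allows up to 4.11%. Cdh5 was seen in 27.4% of thinned endothelial nuclei, 13.5% of fibroblast nuclei and 0.0236% of all other nuclei (unthinned 56.2%, 25.3% and 0.0939%).

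The neuron-poor fibroblasts were also divided by Cldn11, a split chosen after its values were seen and given as a description. The 23 nuclei with a Cldn11 UMI were deeper, with a median of 4329 UMIs, than the 29 without, with 2901, and 3 and 10 of them came from the F/F-labelled library. All 18 Cdh1 UMIs were in nuclei with Cldn11. Bnc2 was higher with Cldn11, at 3313 against 1413 CPM (ratio 2.34, 1.90 to 2.90), as was Mgp, an inhibitor of calcification (2.84, 1.32 to 6.77). Bmp6 was lower, at 1666 against 4437 CPM (0.375, 0.313 to 0.449), as were Lama1 at 111 against 509.8 CPM (0.218), Col4a1 at 379 against 973 CPM (0.390) and Aldh1a2 at 185 against 556 CPM (0.333). Ptgds was near, at 3397 against 2827 CPM (1.20, 1.02 to 1.42). The variance of Ptgds counts among the neuron-poor fibroblasts was 25.7 times that of counting error alone. That interval is therefore too narrow for the spread between nuclei. Cdh5, at 185 against 92.7 CPM, had an interval that includes 1 (0.843 to 5.24). Slc6a13 was also lower with Cldn11 (0.505), while the intervals for Lama2 (0.729, 0.491 to 1.08) and Cxcl12 (0.628, 0.385 to 1.01) include 1.

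With 6 endothelial nuclei in the F/F-labelled library, levels per library carry little weight for that type. The 6 had from 1696 to 48394 UMIs, and 3 of them held at least 5 neuronal genes. Those 3 held 89.2% of the UMIs of the 6. For the fibroblasts, with 16 and 59 nuclei, 20 lists were summed by library, and those that follow were chosen after their values were seen. The pia list was 2268 CPM in the F/F-labelled and 1141 CPM in the NCKO-labelled fibroblasts, a ratio of NCKO over F/F of 0.503 (0.409 to 0.622). Without Lama2, its most abundant gene, the ratio was 0.397, and in neuron-poor nuclei 0.520. The basement membrane list was 5564 and 3479.6 CPM, a ratio of 0.625 (0.550 to 0.712). It shares Lama1, Lama2, Col18a1 and Col15a1 with the pia list, so the lower sums of these lists are not separate results. Per nucleus, the pia list ran from 509.7 to 6993 CPM with a median of 2268 CPM in the F/F-labelled library. In the NCKO-labelled library it ran from 0 to 3792 CPM with a median of 1123 CPM, so the medians differed and the ranges overlapped.

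The arachnoid list went the other way, at 2499 and 3754 CPM, a ratio of 1.502 (1.26 to 1.80). Ptgds held 62.1% of its UMIs, and without Ptgds the ratio was 1.03 (0.803 to 1.34). The secreted signals were 11465 and 7434 CPM, a ratio of 0.648, and without Ptn 0.729. That list shares Cxcl12 with the pia list and Wnt6 with the arachnoid list. The vessel Wnt list was 2676 and 1665 CPM, a ratio of 0.622 (0.517 to 0.752). Glycolysis genes were 1630.2 and 929.7 CPM, a ratio of 0.570 in fibroblasts, and in all other nuclei they were 1168 and 664 CPM, so that difference was not limited to the fibroblasts. In the same fibroblasts the mural marker sum was 514 and 225 CPM and the microglial sum 70.9 and 232 CPM. The excitatory neuron sum was 1719 and 628 CPM, the radial glia sum 1825 and 843 CPM and the Cajal-Retzius sum 35.4 and 1013 CPM. The part of these sums in the ratios was not tested. Fewer nuclei of a layer and less RNA per nucleus cannot be told apart in these sums.

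**Figure D5:**
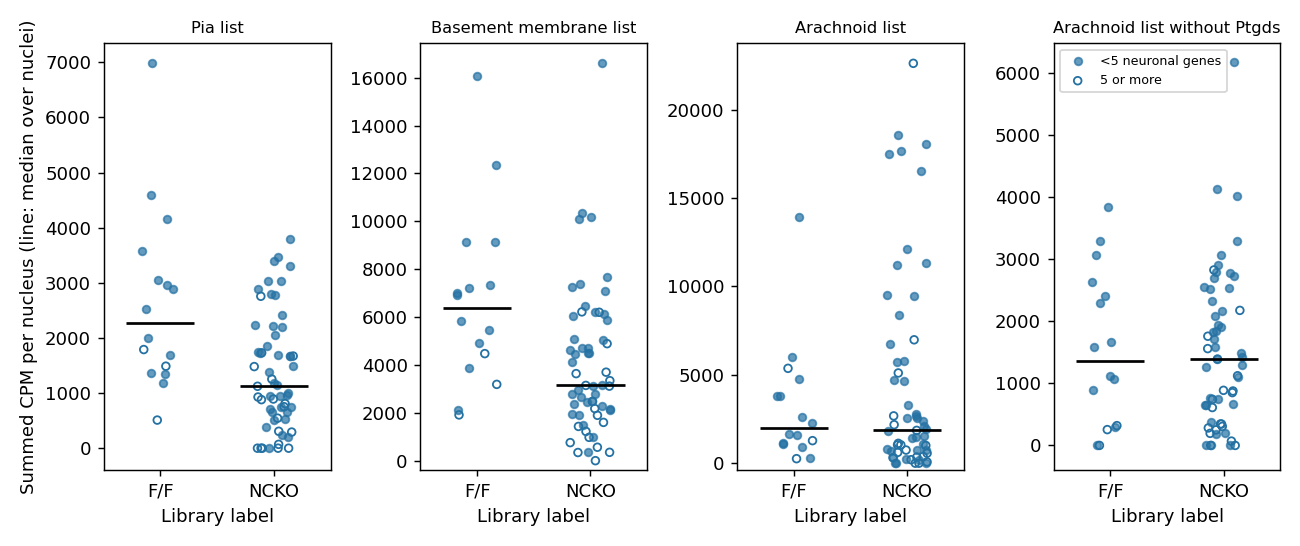
Each point is a fibroblast gate nucleus and the y axis is the summed CPM of the pia, basement membrane and arachnoid lists and of the arachnoid list without Ptgds, by library label, with a line at the median and open symbols for nuclei with at least 5 neuronal genes. The pia and basement membrane medians are lower in the NCKO-labelled library (2268 against 1123 CPM for pia), while the ranges overlap. Both of these lists hold Lama1, Lama2, Col18a1 and Col15a1.

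Men1 itself was too sparse to check the labels in these nuclei. The endothelial nuclei held 1 Men1 UMI in the F/F-labelled and 3 in the NCKO-labelled library, and the fibroblasts held 1 and 4, with ratios whose intervals span from 0.0465 to 30.4 and from 0.0775 to 38.6. In all other nuclei Men1 was 10.3 and 13.5 CPM, a ratio of 1.32 (1.15 to 1.51), so Men1 RNA was not reduced in the library with the NCKO label. Reads from the 3' end that fall outside a deleted part are still counted. This level therefore cannot check a deletion whose place is not given. Epha4, the ephrin receptor in the title of the study, was 258 and 221 CPM in endothelial nuclei (ratio 0.858, 0.524 to 1.47) and 301 and 177 CPM in fibroblasts (0.587, 0.334 to 1.08). In all other nuclei it was 252 and 158 CPM (0.625, 0.606 to 0.645). A difference of Epha4 in either vascular or meningeal type was not detectable at this depth.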

How the data were processed

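Nuclei from 2 libraries, 1 for each genotype label, were analysed. The deposited tables hold raw UMI counts per gene and barcode, and the file headers name Cell Ranger 6.1.0 as the software that wrote them. Reads were aligned to mm10 and Seurat was used in a role not given, per the submitters' processing notes. Where a symbol stood on more than 1 line (36 symbols), the line with more UMIs was used, and no source used here says whether the authors counted by strand, which leaves overlapping genes uncertain. Counts were summed over nuclei and scaled to CPM with Python 3.11.15, numpy 2.4.6, scipy 1.17.1 and pandas 2.3.3. Levels carry exact Poisson, shares exact Clopper-Pearson and ratios exact conditional binomial 95% intervals. Doublets were called with Scrublet in scanpy 1.11.5, as the highest scores at 0.8% per 1000 barcodes. Figures were drawn with matplotlib 3.10.9. Named genes are the list members, Men1, Epha4, and in each type the 15 highest and 8 lowest log2 ratios with at least 20 UMIs (8 each way between the types), of which the most informative are printed (a few genes are not reported here), and the most abundant genes. The members and the 20 gene lists were chosen with earlier results of these data known. The interval and call code was tested on simulated counts.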

Additional observations from a re-analysis of the deposited data

How the results depend on the processing

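No paired analysis was possible because there was 1 library per label. With a gate of 2 genes the endothelial members were 120, and with 4 the fibroblast members were 47. The fibroblast share ratio was 1.21 after thinning to 1000 UMIs. Endothelial genes 4-fold higher (364 as reported) were 616 at a pseudocount of 1 CPM, 88 at 50 CPM, 668 without members holding at least 5 neuronal genes, 621 by the mean of single nuclei and 114 in the F/F-labelled library alone. Those lower (5) were 43, 0, 668, 207 and 23 in the same settings, 17 with a gate of 4 genes, 35 without called doublets, 3 with nuclei of both gates included and 13 in the NCKO-labelled library alone. Fibroblast genes higher (475) were 140 at 50 CPM and 270 in the F/F-labelled library, and those lower (40) were 149 at 1 CPM, 6 at 50 CPM, 77 with a gate of 4, 238 without called doublets, 553 without neuronal members, 127 by the mean of nuclei and 187 in the F/F-labelled library. Endothelial over fibroblast calls (205 higher) were 409 without neuronal members. The list ratios between libraries were 0.397 (pia) and 1.03 (arachnoid) and 0.729 (signals) without the most abundant gene, and 0.545 (basement membrane) without the richest nucleus of each library. The cause of these changes was not tested. Of the 364 endothelial genes 361 remained 4-fold higher without neuronal members and 103 in the F/F-labelled library alone, and of the 475 fibroblast genes 457 and 217. Without neuronal members the fibroblast over endothelial fold of Sparc went from 1.13 to 0.730, of Arhgap29 from 1.55 to 0.901 and of Tenm2 from 0.814 to 3.23. The settings without neuronal members between types, without Mmrn2, Dcn and Lum, and for list sums were chosen after seeing the data. The 6 F/F-labelled endothelial nuclei and their depth limit every comparison by library.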

Other observations

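Of 20 cell cycle genes 0 were 4-fold higher in either type, where 4.25% and 6.46% of all measured genes were, and only 4 and 2 of the 20 were measured in endothelial and fibroblast nuclei. Their summed level was 377 CPM in endothelial nuclei against 233 CPM in all other nuclei (ratio 1.62, 1.39 to 1.87) and 218 CPM in fibroblasts. Top2a, a mitotic topoisomerase, had 20 UMIs in 5 endothelial nuclei and 10 in 5 fibroblast nuclei. Among the 52 neuron-poor nuclei of each type 1 endothelial and 2 fibroblast nuclei held at least 2 of 6 mitotic genes, against 2.90% of all other nuclei. Over all members they were 7 of 73 endothelial nuclei (9.59%, 3.94 to 18.8) and 3 of 75 fibroblast nuclei (4%). Of 21 glycolysis and hypoxia genes 2 were 4-fold higher in endothelial nuclei, Slc2a1 and Ankrd37 (49.97 CPM, 24 UMIs), and 0 in fibroblasts.

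The most abundant genes of neuron-poor endothelial nuclei besides Malat1 were Bsg, the basigin chaperone of monocarboxylate carriers, at 6081 CPM against 203 CPM in all other nuclei, and PTPRG, a receptor phosphatase, at 5791 CPM against 419 CPM. Ptprm, a vascular receptor phosphatase, was 2955 CPM, Igf1r 2886 CPM and Dach1, a factor of coronary and brain endothelium, 2305 CPM. Single nuclei held most of the UMIs of some genes, with 66 of 67 Reln UMIs in 1 neuron-poor endothelial nucleus and 192 of 207 Dcc UMIs in 1 neuron-poor fibroblast nucleus. The 2 nuclei that passed both gates came from the NCKO-labelled library and held 938 and 19532 UMIs.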
